A study of Mus musculus with 11 samples.

Results

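Circadian clock genes were followed in prefrontal neurons sorted from mice that had either never received ethanol or were in withdrawal from it. The set holds 10 genes chosen by name, Per1, Per2, Per3, Cry1, Cry2, Clock, Npas2, Nr1d1, Nr1d2 and Dbp, out of 53465 genes in the count files. Each symbol matched a single Ensembl gene of GRCm38. Adult male CRF1:GFP mice of at least 10 weeks were used, a reporter line in which GFP marks cells that express the type 1 receptor of corticotropin-releasing factor (CRF1). GFP-positive cells of the medial prefrontal cortex (mPFC) were collected by fluorescence-activated cell sorting from 1 mouse per library. Withdrawn mice (n = 5) were exposed intermittently to ethanol vapor over 5 to 6 weeks, were also injected with ethanol and pyrazole, which inhibits alcohol dehydrogenase, and were then kept abstinent for 5 to 8 days. Naïve mice (n = 6) received pyrazole and air for the same time. All mice were kept on a reversed cycle of 12 hours of light and 12 hours of dark with lights off at 8 AM. The clock time at which brains were taken is not given in the sources used here, so its part in the values was not tested.

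The mammalian clock is a loop of transcription and translation that runs in most cells. CLOCK, or its relative NPAS2, pairs with BMAL1 (the product of Arntl) and switches on the Per and Cry genes through E-box elements, and PER and CRY proteins then return to the nucleus and repress that pair. A further loop runs through REV-ERB proteins, made from Nr1d1 and Nr1d2, which repress Arntl, while DBP carries the rhythm to other genes through D-box elements. In many tissues Dbp and Nr1d1 are among the transcripts with the strongest daily swing, in antiphase to Arntl, and in the forebrain NPAS2 can stand in for CLOCK.

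Group membership was taken from sample titles and treatment labels, which agree. The source label of 3 of the 5 withdrawn mice says control all the same, and the submitters' design description counts 5 control and 6 ethanol mice, so a comparison without these 3 mice was also made. Each mouse contributed between 7351567 and 22244869 counts on genes. Levels are given in CPM, counts scaled by normalized library size. A floor of 3 counts corresponds to between 0.135 and 0.408 CPM, taken on the counts on genes without that normalization. The gene of the sorted receptor, Crhr1, was at 92.7 ± 21.5 (SD) CPM in the 6 naïve mice and at 89.3 ± 33.6 (SD) CPM in the 5 withdrawn mice. Summed levels of 5 glutamatergic neuron markers lay between 1749 and 3113 CPM in naïve and between 1323 and 2766 CPM in withdrawn mice. GABAergic neuron markers (6 genes) summed to 73.3 to 923 and 28.5 to 669 CPM. Marker sums of other cell types, again for naïve and then withdrawn mice, were 9.41 to 153 and 12.6 to 355 CPM for astrocytes (5 genes), 129 to 241 and 77.8 to 226 CPM for oligodendrocytes (5 genes), and 0 to 15.3 and 5.82 to 26.7 CPM for their precursors (4 genes). Microglial markers (5 genes) summed to 0 to 7.03 and 3.13 to 16.8 CPM, endothelial markers (5 genes) to 3.18 to 609 and 23.1 to 456 CPM, and fibroblast markers (6 genes) to 0.0677 to 70.9 and 11.4 to 1317 CPM. No listed marker was at 0 in every mouse. Of the fibroblast markers, 5 of the 5 tested were higher in withdrawn mice at an unadjusted p under 0.05 in edgeR. The thresholds given below were met by none in edgeR and by 3 in DESeq2. Over all tested genes, 5% were higher and 2.22% lower at that p in edgeR, and DESeq2 called 1.66%. At the same unadjusted p, the GABAergic marker Sst was lower (log2 fold change -5.33), and the astrocyte marker Gja1 and the microglial marker Tmem119 were higher (3.61 and 3.75). The other tested markers of these lists went the other way. Of the GABAergic markers 5 of 6 were higher (median log2 fold change 0.36). Of the astrocyte markers 3 of 4 tested were lower (median -0.38), as were 2 of 3 tested microglial markers (median -0.26). DESeq2 also called 1 precursor marker. The part of other cell types in the levels of clock genes was not tested. In bulk samples of this kind, fewer cells of a type and less RNA per cell cannot be told apart.

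Letters that match the elements of the loop were found upstream of several of the genes. They are shown because, in the windows searched, Per1, Cry1, Cry2 and Nr1d1 held E-box type elements and Per3 held D-boxes. RefSeq windows from 250 bases before to 50 bases after a transcription start (GRCm38.p6) were searched on both strands for the E-box CACGTG, the E'-box CACGTT, the D-box TTATGTAA or TTACGTAA, the REV-ERB element TAGGTCA or TGGGTCA, and the cAMP element TGACGTCA. There were 12 windows for 9 of the 10 genes, and Per2 had no entry. Of 32851 windows of all genes, 7.15% held the E-box, 4.68% the E'-box, 1.06% the D-box, 6.45% the REV-ERB element and 1.79% the cAMP element. Counted per gene, over 27025 genes, these shares were 8.09%, 5.44%, 1.23%, 7.35% and 2.03%. Matches are written 5′ to 3′ on the strand of the gene, with the element in capitals, and AACGTG is the E'-box read on the other strand.
Per1, chr11:69098758-69098813, plus strand, E-box: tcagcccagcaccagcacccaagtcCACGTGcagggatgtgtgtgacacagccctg
Cry1, chr10:85185084-85185158, minus strand, E'-box and E-box: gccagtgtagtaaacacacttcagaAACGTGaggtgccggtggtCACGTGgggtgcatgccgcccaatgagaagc
Cry2, chr2:92434205-92434260, minus strand, E'-box: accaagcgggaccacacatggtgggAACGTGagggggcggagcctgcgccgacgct
Nr1d1, chr11:98775378-98775430, minus strand, E'-box: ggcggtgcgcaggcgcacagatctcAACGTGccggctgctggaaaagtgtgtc
Per3, chr4:151044791-151044895, minus strand, D-box at 2 places: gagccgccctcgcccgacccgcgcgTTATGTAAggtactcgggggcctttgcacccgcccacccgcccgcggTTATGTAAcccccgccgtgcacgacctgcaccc

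No stretch shown overlapped an annotated exon, and no printed element overlapped another. Both Per1 windows lie at starts inside the annotated gene, so the outermost annotated start was not searched, and the window farther downstream held no match. The elements began 166 bases before the start in Per1, 79 and 60 in Cry1, 166 in Cry2, 28 in Nr1d1, and 205 and 158 in Per3. For Cry2 and Nr1d1 the first bases after the RefSeq start were not found in a GENCODE transcript of the gene, so these distances hold for the RefSeq start only. The windows of Clock, Npas2, Nr1d2 and Dbp held none of these letters, and neither the REV-ERB nor the cAMP element was found in a window of any member. A match of letters is a description and not a site of binding.

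Expression of the clock genes did not differ detectably between naïve and withdrawn mice. All 10 passed the low-count filter, with at least 145 counts in every mouse. A gene was called when its log2 fold change was beyond 0.6 and its adjusted p did not exceed 0.05. No member was called by edgeR's quasi-likelihood test, where 0.00585% of the 17093 tested genes did. No member had an unadjusted p under 0.05 either, against 7.22% of all tested genes (5% higher and 2.22% lower in withdrawn mice), and DESeq2's Wald test called none, against 1.66%. Their log2 fold changes (withdrawn over naïve) ran from -0.34 to 0.24, with 6 above and 4 below 0. The median was 0.03, beside 0.02 over all tested genes, of which 51.8% were above 0. For none of the members were the groups apart in CPM, which was the case for 0.948% of tested genes (0.257% with withdrawn mice below). The 95% interval of the fold change lay within 2-fold in either direction for 9 of the 10, and within 1.5-fold for 4, Cry2, Nr1d1, Nr1d2 and Dbp. Changes inside these intervals were not excluded with 11 mice. Without the 3 mice whose labels conflict, the log2 fold changes of the members lay between -0.40 and 0.25, again with no member past the thresholds (smallest adjusted p = 0.891, edgeR). In that comparison of 6 and 2 mice the sign turned for Per1 (0.094), Nr1d2 (-0.15) and Dbp (0.027).

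**Figure D1:**
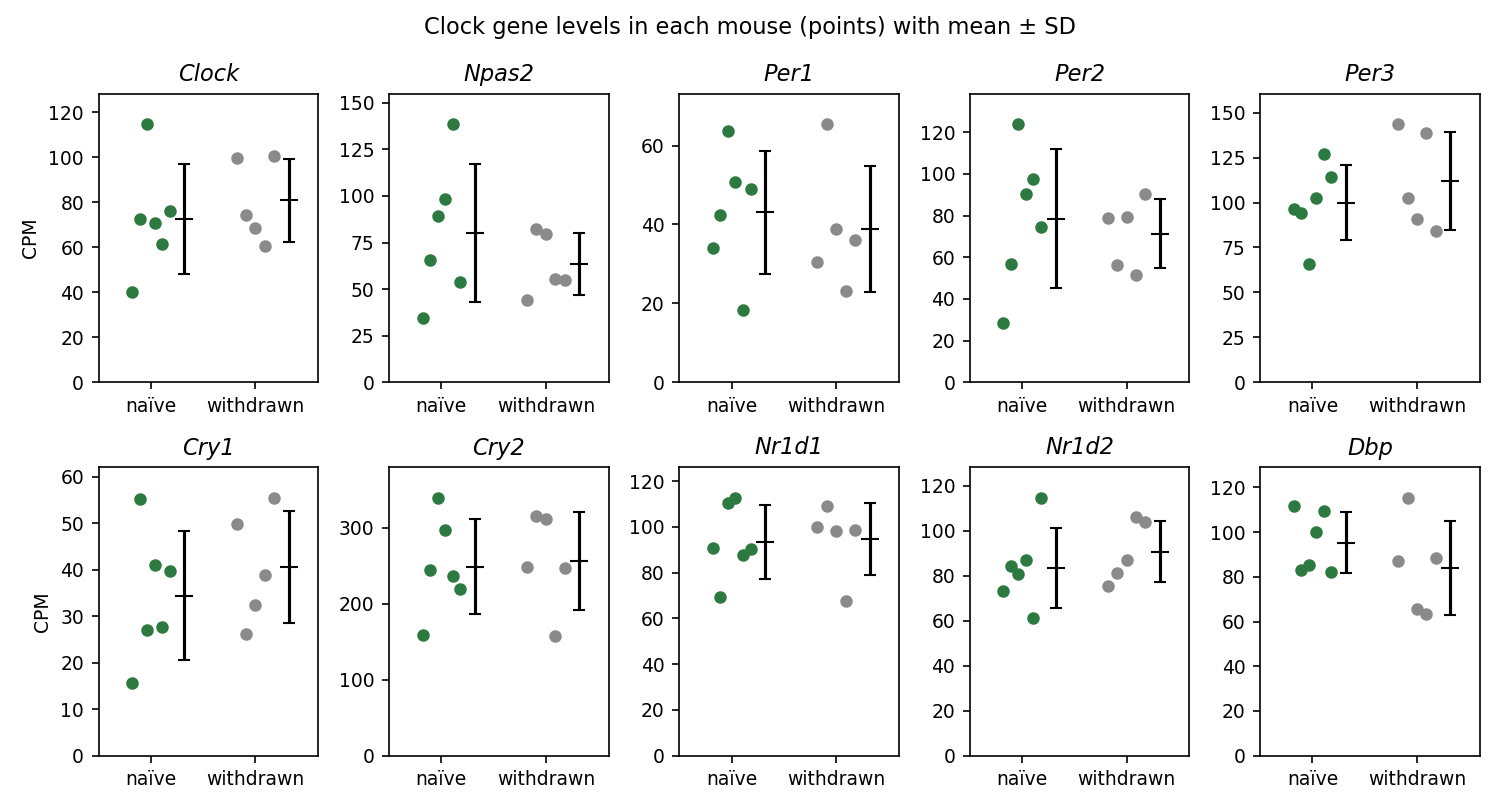
Level of each clock gene in CPM (vertical axes from 0) in 6 naïve mice (green points) and 5 withdrawn mice (grey points), with the mean and SD of each group in black. In every panel the points of the groups overlap.

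The activators of the loop are described first. Clock (ENSMUSG00000029238, chromosome 5 from 76209868 to 76304792) encodes the partner of BMAL1. Its level was 39.95 CPM in the lowest, 71.7 in the median and 115 in the highest naïve mouse, and 99.6, 74.3, 68.6, 60.7 and 101 CPM in withdrawn mice 1 to 5. All withdrawn mice were inside the naïve range. Group means of 72.6 ± 24.3 (SD, n = 6) and 80.8 ± 18.3 (SD, n = 5) CPM corresponded to a log2 fold change of 0.15 with a 95% interval from -0.37 to 0.67 (adjusted p = 0.947, edgeR).

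Npas2 (ENSMUSG00000026077, chromosome 1 from 39193731 to 39363236), the forebrain relative of Clock, showed the lowest log2 fold change of the set, -0.34 (standard error 0.31, 95% interval -1.01 to 0.33, adjusted p = 0.889, edgeR). Naïve mice spread from 34.7 to 138 CPM around a median of 77.5, and the withdrawn values were 44.4, 82.0, 79.5, 55.4 and 55.0 CPM. The withdrawn mice again sat inside the naïve range, which was wide because of naïve mice 1 (lowest) and 5 (highest). Of the 10 genes, this was the only one whose interval reached past 2-fold, with a lower bound of 0.498 on the fold scale. The exact permutation test of log2 CPM, two-sided here and for the other genes, gave p = 0.498.

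The Per genes encode the repressors that time the loop, and Per1 and Per2 also respond quickly to neuronal activity and hormones. Per1 (ENSMUSG00000020893, chromosome 11 from 69095217 to 69109960) had 18.4 CPM in the lowest, 45.7 in the median and 63.7 in the highest naïve mouse. Its withdrawn values were 30.5, 65.4, 38.9, 23.1 and 36.2 CPM, so that the highest mouse of all was withdrawn mouse 2 and the lowest was naïve mouse 5. It had a log2 fold change of -0.15 with a 95% interval from -0.85 to 0.55 (adjusted p = 0.966, edgeR; exact permutation p = 0.706).

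Per2 (ENSMUSG00000055866, chromosome 1 from 91415982 to 91459324) spread more widely among naïve than among withdrawn mice. Naïve mice had from 28.5 to 124 CPM with a median of 82.5, and withdrawn mice had 78.9, 56.4, 79.4, 51.4 and 90.4 CPM, all of them inside the naïve range. Between the lowest and the highest of all mice lay a 4.35-fold range, the widest of the set. Its log2 fold change was -0.14 with a 95% interval from -0.80 to 0.52 (adjusted p = 0.966, edgeR).

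Per3 (ENSMUSG00000028957, chromosome 4 from 151003652 to 151044665), is the Per gene with the D-boxes shown above and the one that is least needed for the rhythm itself. Naïve mice lay between 65.6 and 127 CPM (median 99.3). Withdrawn mice had 143, 103, 90.6, 139 and 84.3 CPM, and mice 1 and 4 of these were above the highest naïve mouse. The log2 fold change of 0.16 (95% interval -0.27 to 0.59) had an adjusted p of 0.927 in edgeR and an exact permutation p of 0.468.

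Cry1 and Cry2 encode cryptochromes, which act with PER proteins to silence CLOCK and BMAL1. Cry1 (ENSMUSG00000020038, chromosome 10 from 85131700 to 85185064) had the highest log2 fold change of the set, 0.24 (standard error 0.31, 95% interval -0.44 to 0.91, adjusted p = 0.933, edgeR). Its level was 15.6 CPM in the lowest, 33.7 in the median and 55.2 in the highest naïve mouse, and 49.8, 26.2, 32.5, 39.0 and 55.5 CPM in withdrawn mice 1 to 5. The groups reached nearly the same highest value, and the low end came from naïve mouse 1.

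Cry2 (ENSMUSG00000068742, chromosome 2 from 92403646 to 92434043) had the highest level per kilobase of the members, as given further on. Naïve mice had from 158 to 339 CPM (median 240), and withdrawn mice had 249, 316, 311, 157 and 246 CPM. The groups covered nearly the same range, with withdrawn mouse 4 and naïve mouse 1 at its low end. Means of 249 ± 62.7 (SD, n = 6) and 256 ± 64.2 (SD, n = 5) CPM gave a log2 fold change of 0.04 (95% interval -0.42 to 0.50, adjusted p = 0.984, edgeR). Exons of D930015M05Rik on the opposite strand share 295 of the 6320 exonic bases of Cry2. Since the SMARTseq HT library kit does not mark strand, reads of the pair cannot be told apart there. Whether such reads were counted or left out depends on the strand setting, which is not given in the sources used here.

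Together with Dbp, the REV-ERB genes had the narrowest ranges over all mice. Nr1d1 (ENSMUSG00000020889, chromosome 11 from 98767932 to 98775333) ran from 69.2 to 113 CPM in naïve mice around a median of 90.4, and was 99.8, 109, 98.1, 67.7 and 98.5 CPM in withdrawn mice. Withdrawn mouse 4 was the lowest of all 11 and stood apart from the other 4 of its group, which were between 98.1 and 109 CPM and inside the naïve range. The means, 93.5 ± 16.1 (SD, n = 6) and 94.7 ± 15.7 (SD, n = 5) CPM, were the closest of any member, with a log2 fold change of 0.02 and a fold interval from 0.782 to 1.31 (adjusted p = 0.992, edgeR). Exons of the thyroid hormone receptor gene Thra on the opposite strand share 263 of the 3077 exonic bases of Nr1d1.

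Nr1d2 (ENSMUSG00000021775, chromosome 14 from 18204054 to 18239127) had 61.3 CPM in the lowest, 82.4 in the median and 114 in the highest naïve mouse. Withdrawn mice had 75.3, 81.1, 87.0, 106 and 104 CPM, all inside that range. The log2 fold change was 0.12 with a 95% interval from -0.27 to 0.50 (adjusted p = 0.944, edgeR; exact permutation p = 0.446).

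Dbp (ENSMUSG00000059824, chromosome 7 from 45705088 to 45710203), the output factor that binds D-boxes, had the smallest spread of all members among naïve mice, from 82.3 to 112 CPM with a median of 92.8. Withdrawn mice 3 and 4, at 65.5 and 63.4 CPM, were below every naïve mouse, mouse 2 at 115 CPM was above every naïve mouse, and mice 1 and 5, at 86.9 and 88.3 CPM, were inside the naïve range. The log2 fold change was -0.18 (standard error 0.18, 95% interval -0.58 to 0.21, adjusted p = 0.900, edgeR), and the exact permutation p of 0.260 was the lowest of the 10. Exons of Sphk2 on the opposite strand share 539 of the 2993 exonic bases of Dbp, 18.01% of them.

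**Figure D2:**
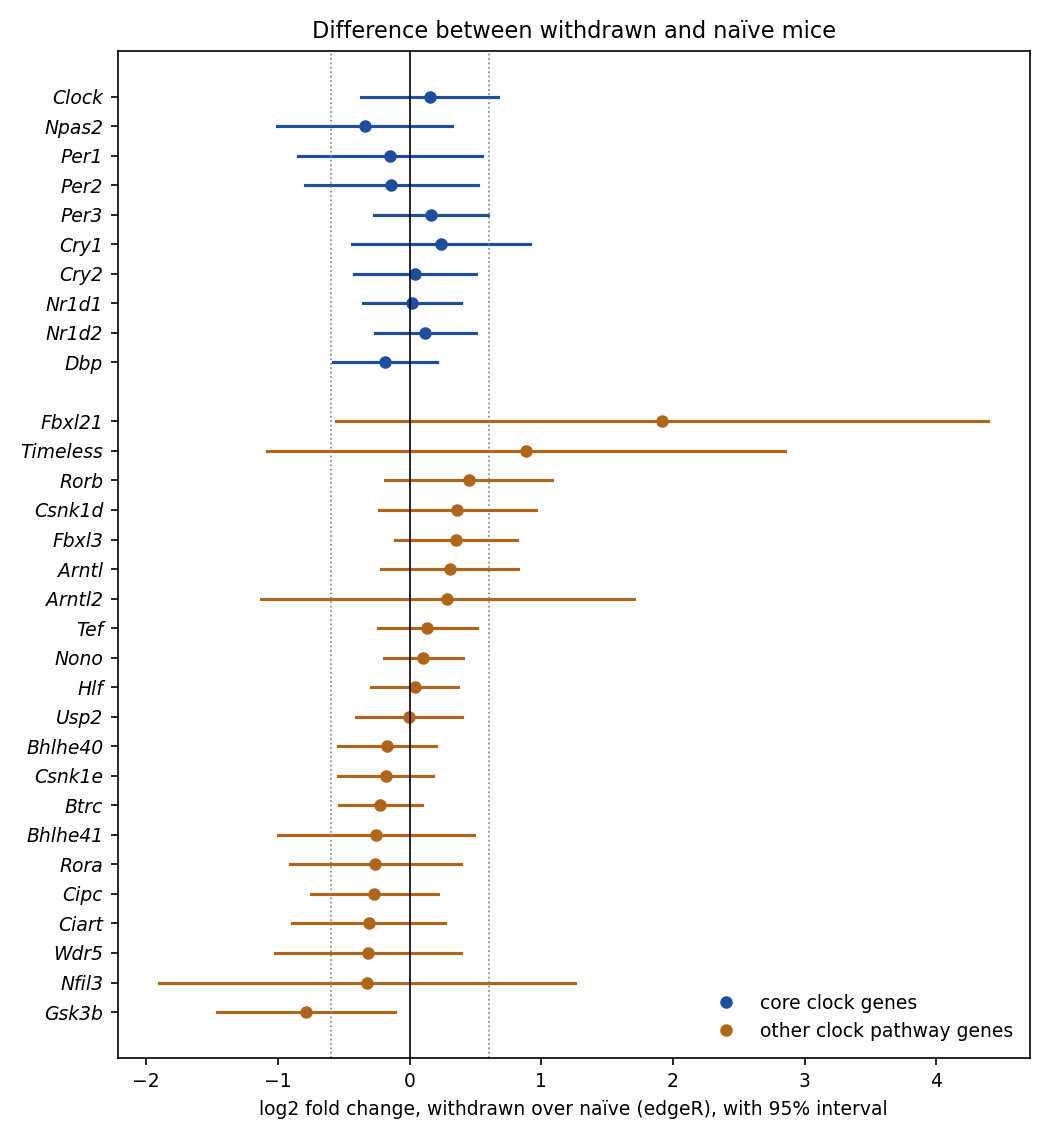
Log2 fold change of withdrawn over naïve mice (horizontal axis) with its 95% interval from edgeR for the 10 core clock genes (blue) and 21 other clock pathway genes (brown), with dotted lines at -0.6 and 0.6. All blue intervals include 0, and among the brown ones only that of Gsk3b does not.

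The rest of the pathway was tested as a list of 21 further genes that passed the filter (the BMAL genes, receptors Rora and Rorb, Bhlhe40 and Bhlhe41, the D-box factors Tef, Hlf and Nfil3, Ciart and Cipc, and kinases, ubiquitin ligases and cofactors of the PER and CRY proteins). Among the 21, 10 were above and 11 below 0, and the median log2 fold change was -0.0030. The values ran from -0.78 for Gsk3b to 1.92 for Fbxl21, a ubiquitin ligase gene of CRY proteins that was low throughout (1.19 ± 1.65 CPM, SD, n = 6, and 4.55 ± 1.98 CPM, SD, n = 5; adjusted p = 0.803, edgeR). Intervals lay within 2-fold in either direction for 14 of the 21. None met the thresholds in edgeR or DESeq2. Arntl, the gene of BMAL1, averaged 59.1 ± 15.99 (SD) CPM over 6 naïve mice and 73.1 ± 24.1 (SD) CPM over 5 withdrawn mice. Its log2 fold change was 0.31 with a 95% interval from -0.21 to 0.82 (adjusted p = 0.866, edgeR). Withdrawn mouse 2, at 114 CPM, was above every naïve mouse for Arntl, and the other 4 were between 52.6 and 71.4 CPM.

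Over all tested genes, 7.22% had an unadjusted p under 0.05 (2.22% lower in withdrawn mice). The lone such gene among the 21 of this list was Gsk3b, which encodes a kinase that phosphorylates several clock proteins. Its log2 fold change was -0.78 (standard error 0.31, unadjusted p = 0.0259, adjusted p = 0.575, edgeR). Naïve mouse 5 had 516 CPM, the other naïve mice had between 136 and 174 CPM, and withdrawn mice had between 120 and 138 CPM. Without naïve mouse 5 the log2 fold change was -0.32 (unadjusted p = 0.0236, adjusted p = 0.519). That mouse also had the fewest genes with a count, 15585, and the lowest share of reads outside annotated exons, 5.77%, and the part of these in its Gsk3b level was not tested.

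Levels between genes were compared per kilobase of merged exons, since long transcripts collect more reads. Over all 11 mice the order was Cry2 (39.9 CPM per kb), Nr1d1 (30.6), Dbp (30.1), Nr1d2 (16.03), Npas2 (15.1), Per2 (12.8), Cry1 (11.1), Per3 (11.0), Per1 (7.30) and Clock (5.56). Neighbours in this order were compared within mice by two-sided exact permutation tests on log2 values, with p adjusted over the 9 pairs. The order and the pairs came from these same values. The p-values therefore describe how steady a difference was from mouse to mouse and are no separate support for the order. They do not cover an error in length that is alike in every mouse. Cry2 was above Nr1d1 in 10 of 11 mice (mean log2 difference 0.36 ± 0.27 SD, adjusted exact p = 0.0132), and Dbp was above Nr1d2 in 11 of 11 mice (0.90 ± 0.49 SD, adjusted exact p = 0.00879). Per3 was above Per1 in 9 of 11 mice, with an adjusted exact p of 0.0762. For the other 6 pairs of neighbours the adjusted exact p was between 0.160 and 0.860, so these neighbours were not told apart beyond their spread. Among the 17063 tested genes with an annotated length, the naïve levels per kb lay at percentile 91.2 for Cry2, 88.9 for Dbp and 88.4 for Nr1d1, and at the other end at 65.5 for Per1 and 57.4 for Clock. Merged exons include every annotated isoform, so genes with long alternative ends, such as Clock with 13.727 kb, have lower values per kb. Exon bases shared with a gene on the opposite strand (18.01% in Dbp, 8.55% in Nr1d1 and 4.67% in Cry2) were kept in these lengths. Their part in the order was not tested.

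**Figure D3:**
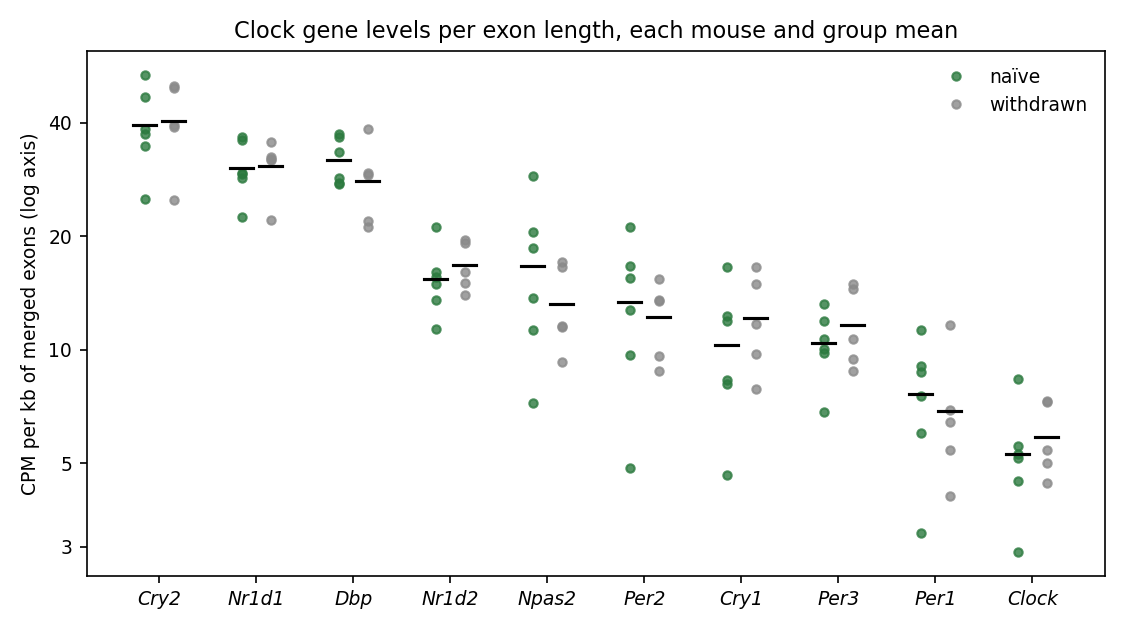
Level of each clock gene in CPM per kb of merged exons (log axis) for every naïve (green) and withdrawn (grey) mouse, with group means as black bars, ordered by the mean over all mice. Cry2, Nr1d1 and Dbp form the upper end, at 39.9, 30.6 and 30.1, and Clock the lower end, at 5.56.

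The members differed in how much they varied from mouse to mouse. Among naïve mice the coefficient of variation was 14.2% for Dbp, 17.3% for Nr1d1, 20.9% for Per3, 21.3% for Nr1d2 and 25.2% for Cry2, and 33.5% for Clock, 36.2% for Per1, 40.2% for Cry1, 42.4% for Per2 and 46.0% for Npas2. For comparison, the median over the 5458 tested genes with a naïve mean in the range of the members was 26.9%. In withdrawn mice the values ran from 15.01% for Nr1d2 to 41.3% for Per1, beside a median of 22.7% over the same genes. The order was not that of the naïve mice, since Dbp had 25.1%, and Npas2 and Per2 had 26.2% and 23.3%. From the lowest to the highest of the 11 mice, Nr1d1 spanned 1.66-fold, Dbp 1.82-fold and Nr1d2 1.87-fold, whereas Npas2 spanned 3.99-fold and Per2 4.35-fold. The lowest values came from few mice. Naïve mouse 1 was the lowest of all 11 for 4 members (Clock, Npas2, Per2 and Cry1), withdrawn mouse 4 for 3 (Cry2, Nr1d1 and Dbp) and naïve mouse 5 for 2 (Per1 and Nr1d2). Withdrawn mouse 4 had the fewest counts on genes, 7351567, and the largest share of reads outside exons, 48.1%. It also had the lowest sum of glutamatergic markers, 1323 CPM, and the highest sums of astrocyte (355 CPM), microglial (16.8 CPM) and oligodendrocyte precursor markers (26.7 CPM), with 920 CPM of fibroblast markers. Naïve mouse 1 had 9970161 counts and the highest sum of GABAergic markers, 923 CPM. Whether these measures bear on the clock levels was not tested.

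The next question was whether genes that share or oppose a phase in the known loop moved together from mouse to mouse. If all brains were taken at the same clock time, such correlations cannot show phase. The clock times are not given, so the values below describe covariation between mice only. For 8 pairs taken from the known structure of the loop, log2 CPM values were correlated with permutation tests of 100000 resamples, and none passed after adjustment over the 8 pairs. Dbp and Nr1d1, which peak close together in many tissues, had a Pearson r of 0.44 and a Spearman rho of 0.44 (permutation p = 0.173 and 0.182, adjusted p = 0.876 and 0.729). Without the 2 mice farthest from the median of Dbp, r was 0.013. Dbp and Arntl, in antiphase in the textbook loop, had an r of 0.073 and a rho of 0.055 (permutation p = 0.832 and 0.883, adjusted p = 0.876 and 0.990). Without the 2 farthest mice that r was -0.45, and within the 6 naïve mice it was -0.37. Nr1d1 and Clock had an r of 0.40 and a rho of 0.53 (permutation p = 0.230 and 0.0993, adjusted p = 0.876 and 0.729), and r was 0.50 without the 2 farthest mice. For the other 5 pairs (Dbp with Per3 and Npas2, Nr1d1 with Nr1d2 and Cry1, and Per1 with Per2), r was between -0.23 and 0.17 and rho between -0.18 and 0.16, with permutation p of at least 0.497 for both.

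**Figure D4:**
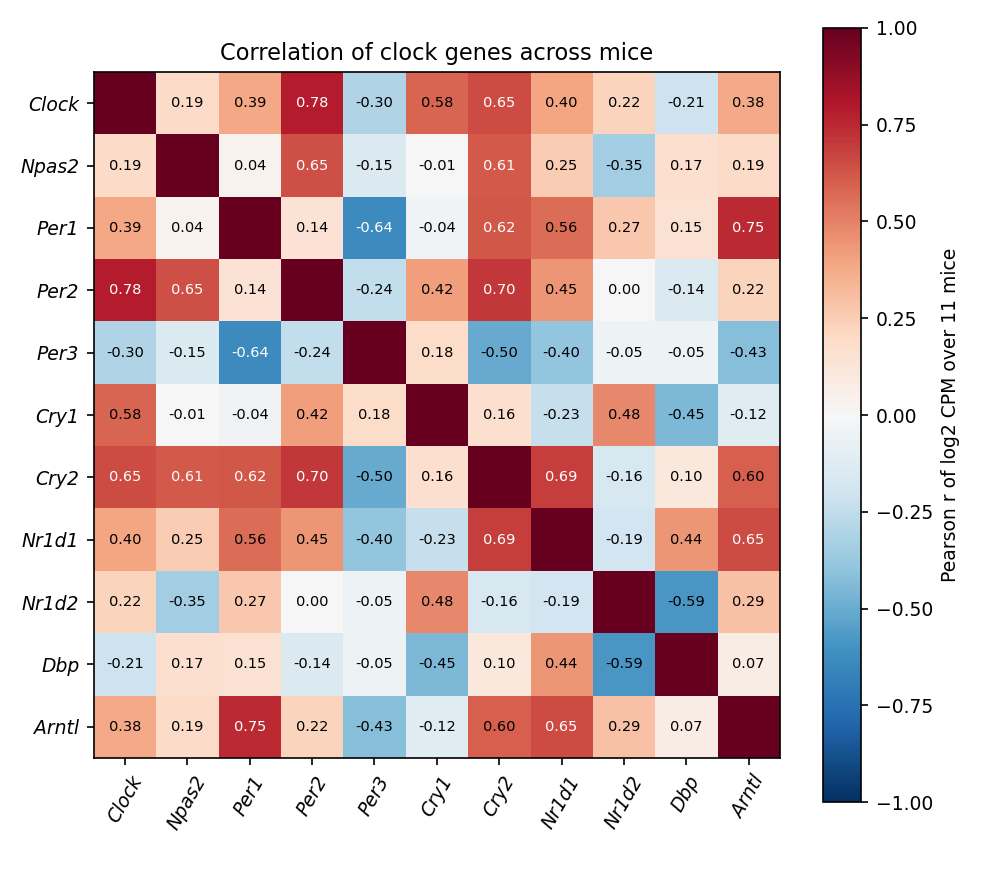
Pearson r of log2 CPM over 11 mice for each pair of clock genes and Arntl, from blue (-1) to red (1). Values run from -0.64 for Per1 with Per3 to 0.78 for Per2 with Clock, and r for Dbp with Nr1d1 is 0.44.

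Over all 55 pairs of the 10 genes and Arntl, 35 values of r were above and 20 below 0, with a median of 0.17. Nr1d1 and Arntl, the target that REV-ERB proteins repress, were not among the 8 tested pairs, and had an r of 0.65 over all mice and 0.83 within the naïve mice. The points share libraries, and the highest value, 0.78 for Clock and Per2, joined genes that were both lowest in naïve mouse 1 and highest in naïve mouse 3. Of all tested genes, the 5 most like Dbp over the 11 mice were Alkbh6 (r = 0.95), Cbln2 (0.93), Wdr34 (0.93), Mpdu1 (0.90) and Mettl9 (0.90), and the 5 most like Nr1d1 were Grm2 (0.92), Klhdc8a (0.91), Pcsk1 (0.90), Pacsin3 (0.87) and Lrrc4 (0.86). None of these is in the clock lists, and the values are a description with no test, picked from 17092 genes. In likeness to Dbp, clock genes ranked from 717 of 17092 for Csnk1e (r = 0.63) to 15431 for Nr1d2 (-0.59), with Nr1d1 at 2046. In likeness to Nr1d1, they ranked from 108 for Rora (r = 0.71) to 15485 for Per3 (-0.40). Next after Rora came Usp2 at 132 (0.70), Cry2 at 148 (0.69) and Arntl at 244 (0.65), while Nr1d2 ranked 12117. These ranks too are a description with no test. Withdrawn mouse 4 was the lowest of all mice for both Nr1d1 and Cry2. Within the naïve mice, r with Nr1d1 was 0.47 for Cry2 and 0.83 for Arntl.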

How the data were processed

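RNA was sequenced from sorted mPFC CRF1+ neurons of 11 mice, grouped by title and treatment label. From 160 pg of RNA per mouse the authors made SMARTseq HT libraries (14 and 12 PCR cycles), sequenced single 75 nt reads, trimmed them with cutadapt, mapped them with STAR to GRCm38 and counted them per gene with HTSeq. The deposited values are these raw counts, 1 file per mouse, without normalization. The strand setting is not given in the sources used here. The 5 closing lines of each file tally reads not assigned to a gene (42.0% to 81.1% of reads were assigned), and were left out of library sizes and tests. Gene symbols, lengths and coordinates come from GENCODE M21 on the same assembly (53274 of 53465 identifiers matched), and upstream sequences from RefSeq (GRCm38.p6).

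Withdrawn and naïve mice were compared by edgeR 4.0.16 in R 4.3.3 (TMM, filterByExpr with a minimum count of 10 and a minimum total of 15, quasi-likelihood test, Benjamini-Hochberg adjustment over 17093 genes), with DESeq2 1.42.0 and limma 3.58.1 as alternatives. The authors used DESeq2. Standard errors are the log2 fold change divided by the square root of F, and 95% intervals use the matching t quantile. Log2 CPM used a prior count of 2. Exact permutation tests between groups were two-sided, taken as double the smaller tail over 462 splits, so the smallest p they can give is 0.00433. Comparisons between genes within mice flipped signs over the 11 mice. Floors cover counting error only, because reads copied by PCR do not each stand for a molecule, and p-values and intervals measure the spread between these mice. Libraries within a group differed by a chi-square per degree of freedom of at least 17.8, so no library was counted as a duplicate. Members, lists, pairs and thresholds were chosen with earlier results of these data known. The genes named are the 10 members, Arntl, other clock genes at an unadjusted p under 0.05, the 5 genes most correlated with Dbp and with Nr1d1, and Crhr1. Fbxl21, Sst, Gja1, Tmem119 and the clock genes named by their likeness to Dbp or Nr1d1 were added with their values known. The marker lists are those of glutamatergic and GABAergic neurons, astrocytes, oligodendrocytes, their precursors, microglia, endothelial cells and fibroblasts.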

Additional observations from a re-analysis of the deposited data

Results flagged for a closer look

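In 24 sets of log2 CPM values (10 members, Arntl and Gsk3b in each group), 2 held a mouse far from the rest of its group by Dixon's criterion. Chance gives about 1.2 for independent sets, but these sets share libraries. Gsk3b was included for its unadjusted p in these same data, so its flag is no separate observation. Withdrawn mouse 4 was low for Nr1d1, at 6.09 on the log2 CPM scale, with a gap of 0.774 of the range of the group. Naïve mouse 5 was high for Gsk3b, at 9.01 on the log2 CPM scale, with a gap of 0.819 of the range. Without withdrawn mouse 4 the log2 fold change of Nr1d1 was 0.12, and without naïve mouse 5 that of Gsk3b was -0.32.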

How the results depend on the processing

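Members past the thresholds stayed at 0 of 10, and other clock genes at 0, under all 18 alternatives (7 other settings and 11 fits without 1 mouse each). Across these, the smallest adjusted p of any member was 0.621 and the smallest unadjusted p 0.0697, both for Per1 with limma voom and sample quality weights. Of 180 member values, 164 kept their direction. The median log2 fold change of the members stayed between -0.049 and 0.098. With quality weights the values that changed sign were 0.046 for Per2 and -0.047 for Cry2, without a low-count filter -0.00016 for Nr1d1, and without the 3 mice with conflicting labels 0.094 for Per1, -0.15 for Nr1d2 and 0.027 for Dbp. With single mice left out, log2 fold changes ranged from -0.055 to 0.18 for Cry2, from -0.060 to 0.12 for Nr1d1, from -0.42 to 0.00031 for Per1 and from -0.31 to 0.039 for Per2. The cause of these changes of sign around 0 was not tested. Exact permutation differences kept their direction and side with prior counts of 0.5 and 5. None of the 8 pairs tested for correlation was past 0.05 in any setting run on them. Signs changed without the 2 farthest mice for Dbp with Per3 (0.26), Nr1d1 with Nr1d2 (0.11) and Dbp with Arntl (-0.45), and within naïve mice for the same pairs (0.39, 0.060 and -0.37).

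Over all genes, the count past the thresholds was 1, and 362 with DESeq2 (342 higher in withdrawn mice), 137 without a low-count filter (136 higher), 0 with the replicate block, 0 without the 3 mice with conflicting labels, and 0 to 193 with single mice left out, the highest without withdrawn mouse 2. Same-numbered mice are different animals, and their deviations correlated between -0.20 and 0.18, beside -0.37 to 0.37 for mice of different numbers. The main fit did not pair them, and these few values do not settle whether a number marks a shared batch. With the replicate block the members' log2 fold changes lay between -0.33 and 0.36. The members had at least 145 counts in each mouse, and with 6 and 5 mice, changes within the intervals given were not excluded.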
